A study of Mus musculus with 36 samples.

Results

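The 10 genes described here build MHC class I, the surface complex on which nucleated cells display peptides from their own proteins. They are H2-K1, H2-D1, B2m, Tap1, Tap2, Tapbp, Nlrc5, Psmb8, Psmb9 and Psmb10. They were taken by symbol from an expression table of 21705 mouse genes, and all 10 were present. RNA sequencing covered 36 libraries: 20 primary bladder tumours, 10 tumours grown from cell lines and 6 cell line cultures. The 9 UPPL primary tumours were untreated and carried Upk3a-CreERT2, p53f/f and Rosa26LSL-Luc, so that the recombinase is driven by the promoter of Upk3a, a uroplakin gene of the urothelium. The 11 BBN primary tumours had the genotype Ctrl and were exposed to N-butyl-N-(4-hydroxybutyl)nitrosamine, a bladder carcinogen. The line-derived tumours, all marked untreated, were 4 of UPPL1541 (UPPL genotype), 2 of BBN963 (Ctrl) and 4 of MB49 (Ctrl), the last a mouse bladder carcinoma line. The cultures were UPPL1541, BBN963, MB49, KT1044, KT1970 and KT1975, 1 library each and all marked Ctrl. That mark differs between the UPPL1541 culture and the UPPL1541 tumours and was not used to group them. Strain, sex, age and host animal are not given in the sources used here, nor is the meaning of KT. Tumours of 1 line are not independent lines, and it is not stated whether they came from separate mice, so the p-values measure the spread between samples.

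In the class I pathway, proteasomes cut cytosolic proteins into peptides. Under interferon, the catalytic subunits Psmb5, Psmb6 and Psmb7 are replaced by Psmb8, Psmb9 and Psmb10, which forms the immunoproteasome. The transporter made of Tap1 and Tap2 carries peptides into the endoplasmic reticulum, where Tapbp (tapasin) holds the transporter beside empty heavy chains. H2-K1 and H2-D1 encode the heavy chains and B2m the light chain. Nlrc5 encodes the transactivator that acts on class I promoters, and carcinoma cells that keep these genes low are poorly seen by CD8 T cells.

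The promoters of the 3 genes that form the complex itself are shown because the results turn on their levels. The stretches come from RefSeq on GRCm38.p6, while mm9 is the build named for the expression table, so no position of that table is given. Capitals mark letters matching a searched motif. H2-K1 is read on the minus strand at chr17:34000349-34000468, ending 2 bases before the first of its 2 RefSeq starts and so inside the annotated span of the gene, which reaches 34000619, H2-D1 on the plus strand at chr17:35262913-35263032, and B2m on the plus strand at chr2:122147540-122147648.
H2-K1: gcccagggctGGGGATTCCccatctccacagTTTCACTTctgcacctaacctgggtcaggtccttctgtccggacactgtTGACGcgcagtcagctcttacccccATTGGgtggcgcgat
H2-D1: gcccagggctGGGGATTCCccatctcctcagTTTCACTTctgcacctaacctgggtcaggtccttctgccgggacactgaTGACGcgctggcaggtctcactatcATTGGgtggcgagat
B2m: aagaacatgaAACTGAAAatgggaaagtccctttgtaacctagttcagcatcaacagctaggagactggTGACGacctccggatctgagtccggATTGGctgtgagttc

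The H2-K1 and H2-D1 stretches shared 108 of 120 bases. In both, a kappa B core (GGGNNTTCC) stood before an IRF core (AANNGAAA, here on the other strand), a site of the X2 type (TGACG) and a CCAAT box (here read as ATTGG). The B2m stretch held the last 3 of these in the same order and no match to the first. Over 32851 windows of all genes, each of 250 bases before a start and searched on both strands, the shares holding a match were 4.98% for the kappa B core, 21.3% for the IRF core, 17.8% for the X2-type site and 33.8% for the CCAAT box. A GAS element (TTCNNNGAA) matched in 7.02% of windows and, among the members, in that of Psmb8. Promoter windows were found for 8 of the 10 members; Tap2 and Nlrc5 were not looked for elsewhere. Of these 8, the X2-type site matched in 5 (B2m, H2-D1, H2-K1, Psmb9 and Tap1) and the CCAAT box in 6 (the same 5 and Tapbp). The windows of Psmb9 and Tap1 overlap, and their matches to both motifs are the same letters counted for each gene. A match is a description of letters, and binding was not measured.

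The genes lie on 3 chromosomes, given here on GRCm38.p6. Psmb9 (chr17:34182030-34187330), Tap1 (chr17:34187556-34197225), Psmb8 (chr17:34198195-34201454) and Tap2 (chr17:34204479-34216321) lie side by side, and 225 bases separate the starts of Psmb9 and Tap1. Tapbp (chr17:33919478-33929290), H2-K1 (chr17:33996012-34000619) and H2-D1 (chr17:35263094-35267497) are on the same chromosome. B2m (chr2:122147687-122153082), Nlrc5 (chr8:94434335-94527272) and Psmb10 (chr8:105935728-105938392) lie on the other 2.

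The deposited values are gene estimates, each library being scaled to give its expressed genes a 75th percentile of 1000. They are not per length, so a level is compared here between libraries, never between genes. The reads recovered from them were 9.29 to 17.9 M per library. In tumours the most frequent low value was 2 to 19 reads, against 1 read in every culture, so a tumour value of 0 may hide a few reads. Krt5, a basal urothelial keratin, stood at 10615 to 324717 in UPPL primary tumours but at 1.122 to 11.65 in MB49 tumours and 0.9636 in the MB49 culture, where Epcam and Upk2 were listed at 0 and Krt8 at 2325. Ptprc, the pan-leukocyte gene, was listed at 0 in 5 cultures and at 3.735 in the UPPL1541 culture. H2-K1 and H2-D1 are similar genes between which the authors' counting could have split reads; both came out as whole reads, within 0.1 of a read, in 36 of 36 libraries, against 9 of 36 for Tapbp.

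Among all libraries, 2 tumours stood apart from their groups in the members. The third UPPL1541 tumour was at least 3-fold above each other tumour of its line in 7 of 10 members, a mark reached by 0.921% of 13675 genes. The primary tumour BBN965 was below each other BBN primary tumour in 9 of 10 members, against 9.63% of 14403 genes. Results that rest on either are given with and without it.

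**Figure D1:**
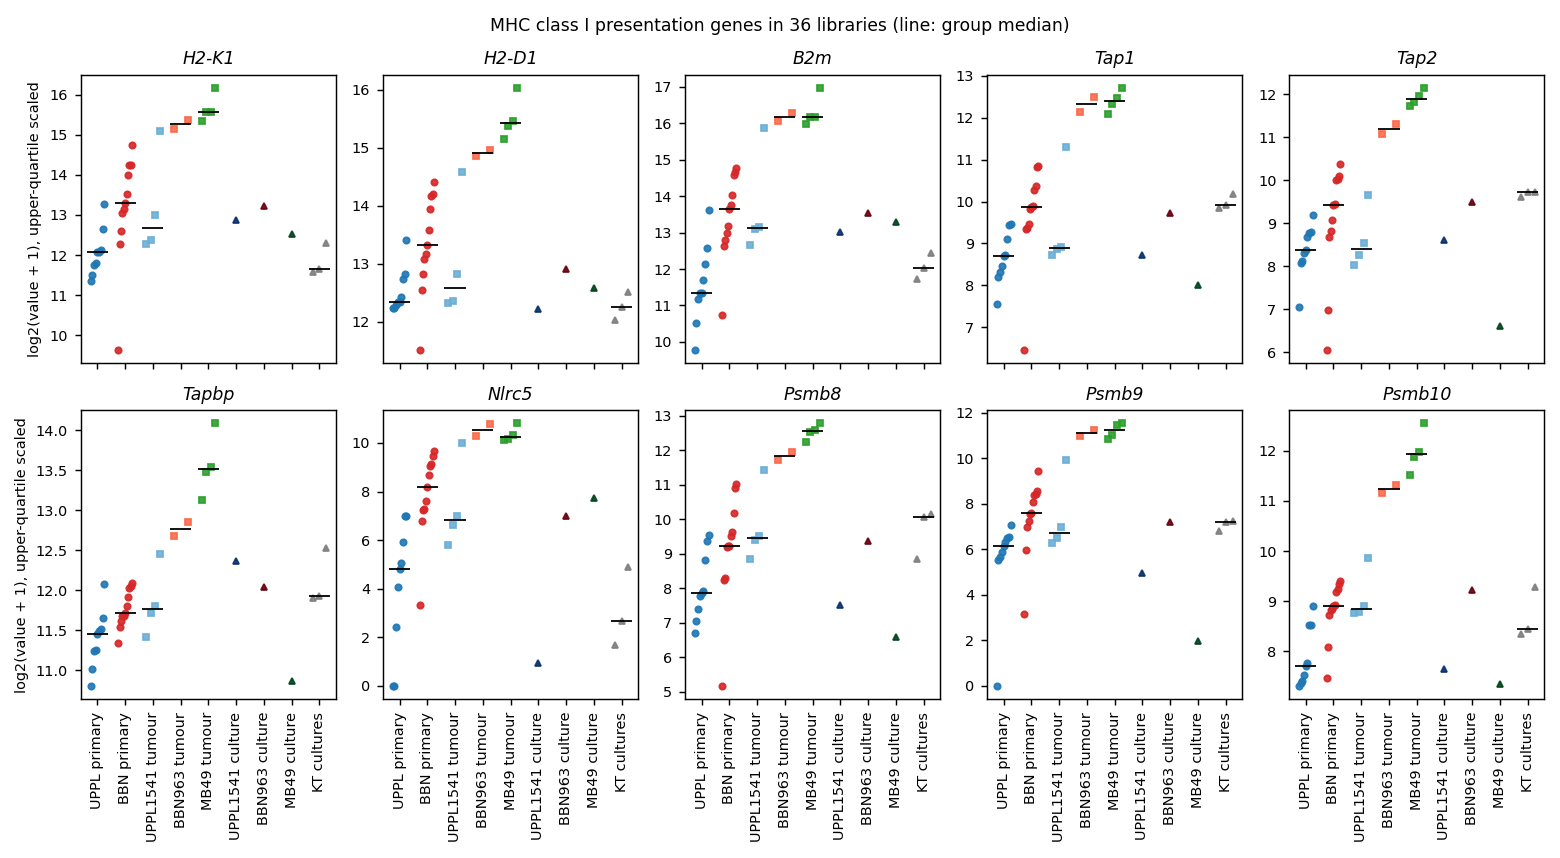
Level of each of the 10 genes in every library, as log2(value + 1) on the vertical axis, with 1 panel a gene and the 9 groups along the horizontal axis; each point is 1 library and the bars mark group medians. The MB49 and BBN963 tumours sit highest, with H2-K1 from 36249 to 74286, while the 6 cultures hold H2-K1 between 3058 and 9589 and UPPL primary tumours between 2606 and 9942.

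Cultures show what the tumour cells of a line hold when few or no other cells are present. Here the peptide-presenting chains were present in all 6. H2-K1 was 7500 in UPPL1541, 9589 in BBN963, 5926 in MB49, and 5008, 3187 and 3058 in KT1044, KT1970 and KT1975. B2m was 8222, 11864, 10054, 5529, 3417 and 4208 in the same order. The 6 lines thus lay within 3.14-fold of each other in H2-K1, 1.85-fold in H2-D1 and 3.47-fold in B2m. With 1 culture a line, none of these differences has a replicate check.

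Several processing genes spread wider between cultures than the heavy chains did, and MB49 was lowest in Tap1, Tap2, Tapbp, Psmb8, Psmb9 and Psmb10. Tap2 was 96.36 in MB49, 391.2 in UPPL1541 and 719 to 851.5 in the other 4. Psmb9 was 2.891 in MB49 and 29.88 in UPPL1541, against 112 to 152.1 elsewhere, a 52.6-fold range. The 2.891 stands for 3 reads, so the size of that range is uncertain. Psmb8 ran from 95.4 in MB49 through 182.1 in UPPL1541 to 1134 in KT1970. Tap1 was 258.3 in MB49 and 421.1 in UPPL1541, below the 849.1 to 1167 of the other lines, and Tapbp was 1875 in MB49 against 3846 to 5896, a 3.15-fold range like that of H2-K1. Nlrc5 did not follow that order: it was highest in MB49 at 210.1 and BBN963 at 127.7. It was 0.9337 in UPPL1541, which is 1 read, and 28.87, 2.2 and 5.333 in the KT lines.

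Tumours grown from the 3 lines held more of the class I genes than the cultures did. In a limma fit with line as a factor, 9 of 10 members were higher in line-derived tumours, against 19.4% of 14716 genes higher and 8.7% lower. The members' median log2 difference was 2.47, beside 0.14 for all genes; under quantile normalization the split over all genes turned from 2855 higher and 1281 lower to 2011 and 2415. Psmb9 had the largest difference (log2 5.28, SE 1, limma adjusted p = 0.0018), followed by Nlrc5 (4.23, adjusted p = 0.0013), Psmb8 (3.62, adjusted p = 7.4e-04) and Psmb10 (2.73, adjusted p = 8.0e-04). Tap1 (2.57), Tap2 (2.37), B2m (2.09), H2-D1 (1.90) and H2-K1 (1.82, SE 0.558, adjusted p = 0.028) passed too. Tapbp did not (0.98, SE 0.43, adjusted p = 0.11). The count was 7 by edgeR, where 2328 genes were higher and 1846 lower. It was 4 with array weights, where 1629 genes were higher and 497 lower. There H2-K1, H2-D1, B2m, Tap1 and Tap2 (1.25, limma adjusted p = 0.26) did not pass.

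How much of a tumour's level its culture held differed by line. The MB49 culture held 0.12% to 15.7% of the mean MB49 tumour level over the 10 members, with a median of 7.91%, and lay below every MB49 tumour in all 10. The BBN963 culture held 6.61% to 60.6%, median 21.2%, also below its tumours in all 10. The share of all genes in which these single cultures lay below every tumour was not counted. The UPPL1541 culture held 0.285% to 138%, median 41.2%, and lay within the range of its tumours in 4 (H2-K1, B2m, Tap2 and Tapbp). The mean behind these shares includes tumour 3, which raised it. Against tumours 1, 2 and 4 alone, the culture lay within 4950 to 8197 in H2-K1 (7500) and within 6504 to 9183 in B2m (8222). Its Tap2 (391.2) lay above their highest value of 370.4, and its Tapbp (5280) above 3578. Thus in H2-K1, UPPL1541 tumours 1, 2 and 4, at 5295, 8197 and 4950, sat around the 7500 of their own cultured cells. In H2-D1, Tap1, Nlrc5, Psmb8, Psmb9 and Psmb10 the culture lay below every tumour of its line. Its Psmb8 was 182.1 against at least 464.4, and its Nlrc5 0.9337 against at least 54.78.

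The tumour against culture difference was tested between MB49 and UPPL1541, assuming that each single culture varies like the tumours. It was larger in MB49 for 6 of 10 members, against 10.1% of genes larger and 4.92% smaller; these splits were 1481 and 724 genes as deposited and 1033 and 907 under quantile normalization. The 6 were Psmb9 (log2 6.78, adjusted p = 0.0081), Tap2 (5.30, adjusted p = 2.5e-04), Psmb8 (3.66, adjusted p = 0.024), Tap1 (3.65, adjusted p = 0.038), Psmb10 (3.20, adjusted p = 0.0038) and Tapbp (3.20, adjusted p = 0.0016), all by limma. H2-K1 (2.82, adjusted p = 0.13), H2-D1 (2.12) and B2m (2.34) did not pass, nor did Nlrc5, whose difference ran the other way (-3.77, adjusted p = 0.14). Leaving out single UPPL1541 or MB49 tumours moved the count between 5 and 9. Without UPPL1541 tumour 3 it was 9 and 1 smaller, where 1407 of 14625 genes were larger and 607 smaller. Quantile normalization and edgeR each left 3, by edgeR with 1209 genes larger and 554 smaller.

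Leukocyte markers were higher in line-derived tumours than in cultures. All 8 genes of a leukocyte list were higher in tumours than in cultures (Ptprc log2 9.33), as were 6 of 6 fibroblast genes. The leukocyte list summed to 38.54 to 368 in cultures, where Laptm5 and Dock2 were listed at 0 in all 6, against 3386 to 13621 in line-derived tumours. T cell markers were at 0 in 5 cultures and summed to 1.778 in 1 KT line. In bulk RNA, fewer cells of a type and less RNA per cell cannot be told apart, and the part of infiltrating cells in the tumour levels was not tested. In the test between MB49 and UPPL1541, the tumour against culture difference was larger in MB49 for 10 of 14 interferon-induced genes. It was larger for 1 of 8 leukocyte, 2 of 8 macrophage and 0 of 6 T cell genes. The median log2 values of these 4 lists were 6.77, 1.00, 1.66 and 3.66 in that order, and 4.34 for cytotoxic genes, beside 3.20 for the members. With 1 culture a line, a gene that did not pass is not shown to be unchanged. With line as a factor, the constitutive subunits Psmb5 (0.13) and Psmb6 (0.25), which every cell uses, did not pass between tumours and cultures. By line, tumour minus culture for Psmb5 was log2 0.96 in UPPL1541, -0.30 in BBN963 and -0.35 in MB49. For Psmb6 it was 0.78, -0.24 and 0.12 in the same order, and for Psmb7 0.21, -0.00 and 0.69. Of 18 further proteasome genes 4 were higher in tumours and 0 lower. Of 14 interferon-induced genes, 13 were higher in tumours. Irf1, of the regulator list, did not pass (0.91, adjusted p = 0.077). Of the wider peptide-loading list 0 of 10 genes were higher and 6 were lower, including the chaperone genes Hspa5 (-1.87) and Canx (-1.14).

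Among line-derived tumours, all 10 members were lower in UPPL1541 than in MB49, and every UPPL1541 tumour lay below every MB49 tumour in each. The share of all genes with such a separation was not counted. H2-K1 was 5295, 8197, 35279 and 4950 in UPPL1541 and 48532, 74286, 49067 and 41979 in MB49. B2m was 9183, 8695, 59339 and 6504 against 64466, 128861, 73420 and 74442. UPPL1541 tumour 3 came nearest to MB49 in both genes without reaching it. The log2 differences of the chains were -2.48 (SE 0.515, limma adjusted p = 0.002) for H2-K1, -2.49 (SE 0.429, adjusted p = 6.0e-04) for H2-D1 and -2.63 (SE 0.575, adjusted p = 0.0028) for B2m. Over all 14604 genes 22.6% were lower and 27.3% higher, with a median of 0.05 beside -2.82 for the members.

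The transporter, immunoproteasome and transactivator genes were lower in UPPL1541 than in MB49 tumours as well. Tap2 was 370.4, 303.8, 800.9 and 262 in UPPL1541 and 3955, 4538, 3585 and 3352 in MB49 (log2 -3.29, SE 0.289, limma adjusted p = 3.9e-06). Psmb9 was 124.3, 88.66, 956.1 and 77.4 against 2763, 2935, 2088 and 1836 (-3.79, SE 0.64, adjusted p = 5.2e-04). In both, tumour 3 was the highest of its line and still under every MB49 tumour. Tap1 differed by -2.95 (SE 0.475), Psmb8 by -2.74 (SE 0.431) and Psmb10 by -2.91 (SE 0.266, adjusted p = 5.4e-06). Tapbp had the smallest difference (-1.71, SE 0.235, adjusted p = 1.2e-04). Nlrc5 was 126.6, 97.78, 1029 and 54.78 against 1152, 1292, 1783 and 1119 (-3.00, SE 0.698, adjusted p = 0.0041), and it no longer passed in 1 fit over all 36 libraries (adjusted p = 0.079). Without UPPL1541 tumour 3 all 10 members still passed, with H2-K1 at -3.12, Tap2 at -3.63 and Nlrc5 at -3.88, where 3023 of 14502 genes were lower.

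Against BBN963 tumours the UPPL1541 tumours were also lower in all 10 members, where 7.37% of genes were lower and 21.4% higher. The 2 BBN963 tumours held H2-K1 at 36249 and 42726, B2m at 68708 and 80183, Tap2 at 2523 and 2141, and Psmb9 at 2402 and 2016. All 4 UPPL1541 tumours lay below both in every member, although H2-K1 in tumour 3 (35279) came close to 36249. Here too, such separation was not counted over all genes. The differences ran from -0.92 (SE 0.288, limma adjusted p = 0.035) for Tapbp to -3.69 (SE 0.784, adjusted p = 0.0057) for Psmb9, with a median of -2.32 beside 0.32 for all genes. With BBN963 tumour 1 or 2 left out, H2-K1 was at -2.19 or -1.96. Those fits leave 1 tumour in that group, so no count is given for them. Leaving out UPPL1541 tumour 1 or 4 left 6 of 10 passing, where 910 of 14506 and 822 of 14518 genes were lower. Without UPPL1541 tumour 3 all 10 passed, with H2-K1 at -2.72, where 917 of 14502 genes were lower. As deposited, 3132 genes were higher and 1076 lower in UPPL1541, and under quantile normalization 1759 and 1772. The contrasts with MB49 and with BBN963 share the 4 UPPL1541 tumours.

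Between BBN963 and MB49 tumours, 1 of 10 members passed. Tapbp was 7412 and 6533 in BBN963 and 11910, 17368, 11452 and 8944 in MB49 (log2 -0.79, SE 0.288, limma adjusted p = 0.045). The other 9 ran from -0.75 (Psmb10, SE 0.325, limma adjusted p = 0.087) to 0.17 (Nlrc5, SE 0.855), where 26.1% of genes were lower and 15.8% higher. Both BBN963 tumours lay below every MB49 tumour in H2-D1, Tap2, Tapbp, Psmb8 and Psmb10, and the groups overlapped in the other members. Such separation was not counted over all genes. With 2 BBN963 tumours, members that did not pass are not shown to be equal. The Tapbp call was lost under median-of-ratios scaling (-0.61, adjusted p = 0.12) and 5 other processing settings, and it held in 3 of 10 fits with 1 tumour left out. B2m, Tap1 and Psmb9 turned sign under that scaling. As deposited, 2309 genes were higher and 3812 lower, and by edgeR 2914 and 2826. Without UPPL1541 tumour 3 in the shared fit, 4 of 10 members were lower, where 3664 of 14502 genes were lower and 2199 higher. The BBN963 and MB49 tumours compared were the same in that fit. The spread shared with UPPL1541 changed, and the SE of Tap2 went from 0.354 to 0.183.

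**Figure D2:**
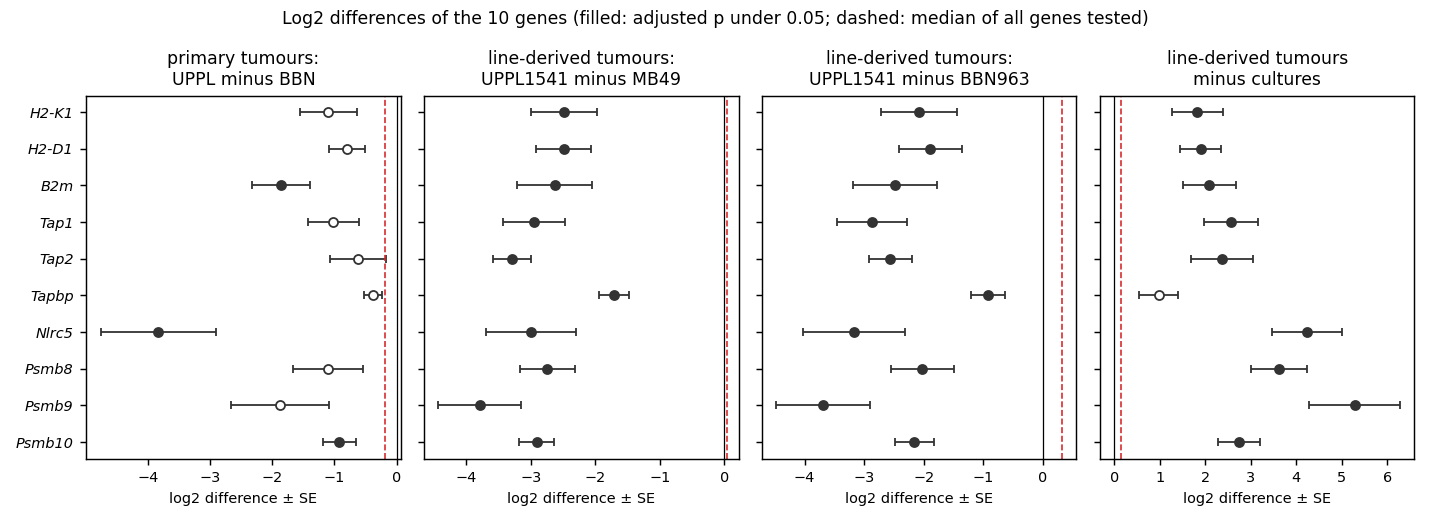
Log2 difference with its SE (horizontal axis) for each of the 10 genes in 4 comparisons: UPPL minus BBN primary tumours, UPPL1541 minus MB49 tumours, UPPL1541 minus BBN963 tumours, and line-derived tumours minus cultures. Filled points passed an adjusted p of 0.05 and dashed lines mark the median of all genes; both UPPL1541 panels have 10 filled points on the lower side and the primary panel has 3.

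Across the 3 kinds of line-derived tumour, leukocyte markers did not follow the order of the class I genes. Ptprc was 697.7, 1012, 1345 and 666.9 in UPPL1541 tumours, 728.4 and 463.2 in BBN963 tumours and 2042 to 2709 in MB49 tumours. Against MB49, 7 of 8 leukocyte genes were lower in UPPL1541 (Ptprc log2 -1.41), whereas against BBN963 none of the 8 was lower, 2 were higher (Cd53 1.31 and Itgb2 0.98) and Ptprc did not pass (0.62, adjusted p = 0.13). Between BBN963 and MB49, 7 of 8 leukocyte and 8 of 8 macrophage genes were lower in BBN963. The members were thus lower in UPPL1541 than in BBN963 beside leukocyte genes that were not. T cell genes differed in both contrasts. Against BBN963, 2 of 6 were lower in UPPL1541 (Cd3d -4.86 and Cd8a -5.27) and 2 of 5 cytotoxic genes (Gzmb -5.03 and Nkg7 -2.86). Against MB49, 4 of 6 T cell, 4 of 5 cytotoxic, 8 of 8 macrophage and 3 of 4 dendritic cell genes were lower in UPPL1541, and 4 of 6 fibroblast genes were higher. The dendritic cell list summed to 743 in the MB49 culture, with 3 of its 4 genes under 10, and to 386.1 to 573.6 in MB49 tumours. In MB49 that list thus does not mark infiltrating cells alone.

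The interferon genes beside the members were lower in UPPL1541 tumours as well. Ifng, the gene of interferon gamma, was listed at 0 in UPPL1541 tumours 1, 2 and 4 and at 8.691 in tumour 3, against 67.26 and 12.25 in BBN963 and 34.97 to 69.72 in MB49 (log2 -4.92, adjusted p = 7.2e-04 against MB49, and -4.09, adjusted p = 0.015 against BBN963). Of 14 interferon-induced genes, 13 were lower than in MB49 and 12 than in BBN963, among them Gbp2 (-3.95 and -3.68) and Isg15 (-1.56 and -2.79). Of 20 regulator genes, 11 were lower and 3 higher against MB49, with Irf1 at -1.84 and Irf8 at -2.66. Against BBN963, 8 were lower and 2 higher, with Irf1 at -1.28. The genes of the pathway outside the members did not move as a block: of 10 peptide-loading genes 5 were lower and 3 higher against MB49, with the trimming peptidase Erap1 at -1.68 and the translocon gene Sec61a1 at 0.69. Of 18 further proteasome genes 3 were lower and 3 higher, with the proteasome activator genes Psme1 at -1.68 and Psme2 at -1.65 and the constitutive Psmb6 at 0.86. Among other class I genes, 10 of 14 were lower and 2 higher, with H2-T23 at -2.19 and H2-M3 at -2.61.

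UPPL1541 tumour 3 stood above the other 3 tumours of its line in all 10 members, by 1.57-fold to 8.13-fold. Its H2-K1 of 35279 was 4.3-fold the next highest tumour, its B2m of 59339 was 6.46-fold, and its Tap1 of 2527 was 5.22-fold. Nlrc5 at 1029 was 8.13-fold and Psmb9 at 956.1 was 7.69-fold the next highest. Tap2 (2.16-fold), Psmb10 (1.93-fold) and Tapbp (1.57-fold) were nearest to the other tumours. The same tumour held Cxcl9, a chemokine gene induced by interferon gamma, at 5607 against 36.51 to 253.3, and its T cell list summed to 574.9 where the median of the 4 was 106.7. Cd3e at 84.43, Cd8a at 88.16 and Gzmb at 67.05 were above every other tumour of the line, whereas Cd3d at 9.933 was below 11.73 in another and Ncr1 was listed at 0. Several macrophage genes were highest in it too: Fcgr1 was 2.39-fold, Emr1 2-fold and C1qa 1.92-fold the next highest, while Cd68 at 622.1 lay under 775.8 in another. Its Ptprc of 1345 was 1.33-fold the next highest, and Laptm5, Coro1a, Dock2 and Cd48 of the leukocyte list were also highest in it. Cd53 at 969.7, Itgb2 at 937.4 and Ncf4 at 173.8 lay under the 1691, 1489 and 288.1 of the highest other tumour. The neutrophil genes S100a8, S100a9, Csf3r and Cxcr2 lay under another tumour of the line too. The part of T cells and macrophages in the levels of the 10 genes in that tumour was not tested. Being 1 library, it has no replicate.

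**Figure D3:**
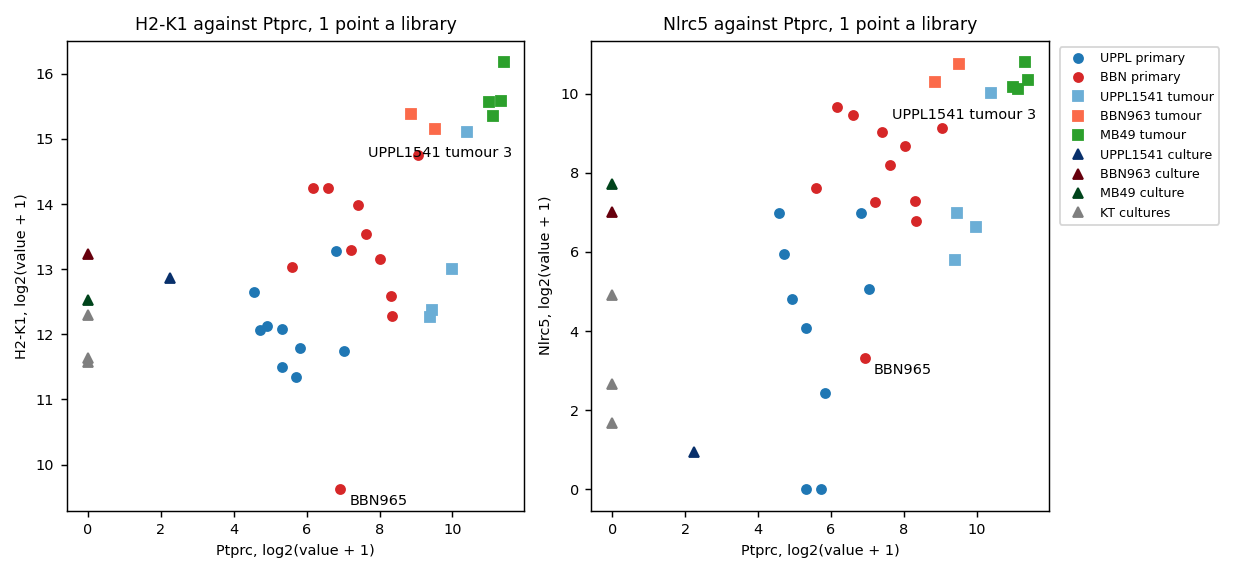
H2-K1 (left) and Nlrc5 (right) against Ptprc in the 36 libraries, all as log2(value + 1), with 1 colour a group. BBN963 tumours reach H2-K1 of 36249 and 42726 at Ptprc of 728.4 and 463.2, while UPPL1541 tumours 1, 2 and 4 hold 4950 to 8197 at Ptprc of 666.9 to 1012; cultures lie at the left edge.

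In primary tumours, 3 of 10 members were lower in UPPL than in BBN, where 12.8% of 12818 genes were lower and 5.71% higher, and the groups overlapped in all 10. B2m had a lowest, median and highest value of 874.9, 2612 and 12563 in UPPL and 1718, 12794 and 27803 in BBN (log2 -1.86, SE 0.471, limma adjusted p = 0.0095). Nlrc5 was 0, 27.09 and 126.5 against 9.009, 292.7 and 815.7 (-3.83, SE 0.93, adjusted p = 0.0074), and was listed at 0 in UPPL1595 and UPPL1694. Psmb10 was 156.9, 206.9 and 480.4 against 174.5, 480.3 and 673 (-0.92, SE 0.262, adjusted p = 0.019). In each of these genes the lowest BBN tumour lay within the UPPL range, while the UPPL median lay under the BBN median. Psmb10 no longer passed under quantile normalization (-0.71, adjusted p = 0.063) or without the tumours UPPL1541 and BBN963, whose numbers the lines carry (-0.86, adjusted p = 0.051). The members' median was -1.06 beside -0.19 for all genes; quantile normalization moved the latter to -0.027 and the share of calls on the higher side from 30.9% (732 higher and 1639 lower) to 50.1%.

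The heavy chains, the transporter genes and the other immunoproteasome genes did not pass among primary tumours. H2-K1 was 2606, 4289 and 9942 (lowest, median, highest) in UPPL and 787.2, 10059 and 27730 in BBN (log2 -1.10, SE 0.457, limma adjusted p = 0.096). H2-D1 was 4828, 5196 and 10898 against 2918, 10308 and 21657 (-0.80, SE 0.29, adjusted p = 0.057). For both chains the BBN tumours spanned more than the whole UPPL range, from below its lowest value to above its highest. Tap1 differed by -1.02 (SE 0.407, adjusted p = 0.082), Tap2 by -0.62 (adjusted p = 0.34), Tapbp by -0.38 (SE 0.141, adjusted p = 0.064), Psmb8 by -1.10 (adjusted p = 0.17) and Psmb9 by -1.88 (SE 0.787, adjusted p = 0.097).

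The lowest BBN values came from 1 tumour. BBN965 held H2-K1 at 787.2 where the 10 other BBN tumours held 4986 to 27730, B2m at 1718 against 6382 to 27803, and Tap1 at 86.71 against 646.7 to 1833. Its Tap2 was 65.32 against 125.4 to 1318, its Psmb8 34.91 against 302.9 to 2093, its Psmb9 7.883 against 61.15 to 680.7 and its Nlrc5 9.009 against 108.5 to 815.7. H2-D1 at 2918 (6019 to 21657) and Psmb10 at 174.5 (270.5 to 673) were low by less, and Tapbp at 4247 lay near the top of its group. The tumour held the lowest H2-K1, H2-D1, Tap1, Tap2 and Psmb8 of all 36 libraries, cultures included. Some other genes did not share that place: Ptprc at 120.5 lay within 47.37 to 529.5, the macrophage gene C1qa at 1066 within 308.5 to 1405, Irf1 at 889.6 within 752.5 to 1639, and the constitutive Psmb5 was 1569. Others did: Irgm1 was 93.47 against at least 632.3 in each other BBN tumour, Gbp3 was 20.27 against at least 60.67, and Gbp2, Igtp, Rsad2, Cxcl9 and Cxcl10 were also lowest there. So were Socs1 (24.77 against at least 44.06), Stat2 (211.7 against at least 329.4), the leukocyte gene Coro1a (66.44 against at least 72.71) and the neutrophil gene S100a9 (157.7 against at least 206). The rest of the leukocyte, neutrophil and regulator lists lay within the range of the other BBN tumours, such as S100a8 (87.84 within 27.54 to 4069). Isg15 (147.5 within 40.76 to 1343), Ifit1, Ifit3, Iigp1 and Usp18 of the interferon-induced list lay within it too. Gbp6 and Ido1 were listed at 0 there, as in another BBN tumour. The most frequent low value of that library was 8 reads.

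Without BBN965, 8 of 10 members were lower in UPPL primary tumours, where 1482 of 12734 genes were lower and 648 higher. H2-K1 was then at log2 -1.45 (SE 0.302, limma adjusted p = 0.0032), H2-D1 at -0.98 (adjusted p = 0.0078), Tap1 at -1.34 (adjusted p = 0.0019), Psmb8 at -1.49 (adjusted p = 0.017) and Psmb9 at -2.30 (adjusted p = 0.027). B2m (-2.13), Nlrc5 (-4.28) and Psmb10 (-1.06) passed as before, and Tap2 (-0.92, adjusted p = 0.081) and Tapbp (-0.35, adjusted p = 0.098) did not pass. Leaving out BBN974 in its place left 5 of 10, where 1488 of 12740 genes were lower and 705 higher.

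Leukocyte and interferon genes were lower in UPPL primary tumours too. The leukocyte list summed to 265.7 to 2118 in UPPL and 914.1 to 3885 in BBN tumours, and 5 of its 8 genes were lower (Ptprc log2 -1.80, limma adjusted p = 0.0067), as were 5 of 8 macrophage genes. With the mean leukocyte level of each tumour as a covariate, 0 of 10 members passed by limma, and 0 at an unadjusted p under 0.05; B2m was then at -0.87 (adjusted p = 0.5), Nlrc5 at -1.92 (adjusted p = 0.44) and Psmb10 at -0.45 (adjusted p = 0.55). Without BBN965 that fit also passed 0 of 10, with 5 lower at an unadjusted p under 0.05, and B2m at -1.31 (adjusted p = 0.23). In the fit with all tumours 282 genes were higher and 239 lower over the table, and without BBN965 191 and 172. The leukocyte level ran from 3.82 to 6.19 in UPPL and from 5.64 to 7.88 in BBN tumours. Model and leukocyte level were thus confounded, and the covariate fit cannot tell them apart. With the covariate the SE of B2m rose from 0.471 to 0.666 and that of Nlrc5 from 0.93 to 1.32. Of the members, 0 of 10 had a slope on the leukocyte level within the models, by limma, by edgeR and at an unadjusted p under 0.05; 0.0546% of 12810 genes had a rising slope and 0% a falling one. The slopes ran from 0.00 log2 units per unit of the leukocyte level for Tapbp to 1.13 for Nlrc5 (adjusted p = 0.53). Irf1 was lower (-1.25, adjusted p = 2.9e-04) with no overlap, at 258.5 to 681.3 in UPPL and 752.5 to 1639 in BBN, and Irf9 (-1.92) was lower with it. Of 20 regulator genes 5 were lower, and of 13 interferon-induced genes 8, including Gbp2 (-3.61), Isg15 (-2.86) and Igtp (-3.26). None of 10 peptide-loading genes passed (Erap1 0.07, Tapbpl -0.07), 3 of 18 further proteasome genes were lower (Psma6 -0.64, Psma3 -0.88, with Psmb5 at -0.30 not passing), and 3 of 11 other class I genes (H2-T10 -3.28, Cd1d1 -2.90).

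Tumours from the BBN963 line held more of the members than BBN primary tumours did. Both BBN963 tumours lay above all 11 primary tumours in each of the 10 genes. How many of all genes did so was not counted. By limma 4 of 10 passed, where 2.09% of genes were higher and 5.67% lower: Psmb10 (log2 2.42, SE 0.426, adjusted p = 6.2e-04), Tapbp (0.99, adjusted p = 0.013), Tap1 (2.64, adjusted p = 0.021) and B2m (2.74, adjusted p = 0.041). H2-K1 (2.10, adjusted p = 0.1) and Psmb9 (3.71, SE 1.3, adjusted p = 0.078) did not pass. Without BBN965 among the primary tumours 6 of 10 passed, where 279 of 15201 genes were higher and 827 lower. Without the primary tumour BBN963 it was 7 of 10, where 412 of 15199 genes were higher and 1108 lower. The members' median was 2.53 beside -0.17 for all genes. With BBN963 tumour 1 or 2 left out, B2m was at 2.85 or 2.63 and Tap1 at 2.45 or 2.82. Those fits leave 1 tumour of the line, so no count is given for them. The primary tumour BBN963 held H2-K1 at 19378, B2m at 25878 and Nlrc5 at 706.7, under both tumours of the line that carries its number. None of 8 leukocyte genes passed here (Ptprc 1.80), while 3 of 6 T cell genes, 3 of 4 cytotoxic genes and Ifng (4.71, adjusted p = 1.7e-04) were higher. By edgeR 313 genes were higher and 416 lower, against 318 and 864 as deposited.

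In the UPPL model, 3 of 10 members were higher in UPPL1541 tumours than in primary tumours, where 20.5% of 15229 genes were higher and 5.98% lower. These were B2m (log2 2.11, SE 0.647, limma adjusted p = 0.017), Nlrc5 (3.33, SE 1.19, adjusted p = 0.039) and Psmb10 (1.19, SE 0.333, adjusted p = 0.0095). The share is near the background, and without UPPL1541 tumour 3 the count was 0 of 10, where 2321 of 15164 genes were higher. The members' median was 1.16 beside 0.37 for all genes. All 8 leukocyte genes (Ptprc 4.22, adjusted p = 2.7e-06), 8 of 8 macrophage genes and 6 of 6 fibroblast genes were higher in the line-derived tumours. Under quantile normalization 1777 genes were higher and 1866 lower, against 3128 and 911 as deposited. The primary tumour UPPL1541 held H2-K1 at 3416, B2m at 3318 and Nlrc5 at 32.3.

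The UPPL and BBN difference of line-derived tumours was set against that of primary tumours in 1 interaction test. It did not pass in any member by limma or edgeR, where 8.16% of genes passed on the higher side and 1.06% on the lower. At an unadjusted p under 0.05 the count was 2 lower by limma and 3 by edgeR. The interaction was -1.94 (SE 0.925, adjusted p = 0.18) for Tap2 and -1.24 (SE 0.541, adjusted p = 0.15) for Psmb10, and the SE of 1.05 for B2m (-0.63) leaves a wide interval. Ifng itself passed (-3.89, adjusted p = 0.011). The median of all genes was 0.55 as deposited and 0.005 under quantile normalization, which turned the split from 1243 higher and 161 lower to 406 and 354.

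Each immunoproteasome subunit was also read against the constitutive subunit whose place it takes, as a log2 difference of the 2 values within a library. Only changes of such a difference between libraries are meaningful. Psmb9 minus Psmb6 was -0.02 to 0.60 in MB49 tumours and -0.37 and 0.23 in BBN963 tumours, and -5.67 to -1.64 in UPPL1541 tumours. It was -8.72 in the MB49 culture, -4.21 in the BBN963 culture and -5.94 in the UPPL1541 culture, so the MB49 culture was furthest below its tumours. Among primary tumours it ran from -11.16 to -3.97 in UPPL, where the lowest value is that of UPPL1595, with Psmb9 listed at 0 and the difference set by the pseudocount, and from -8.83 to -2.11 in BBN, which overlap. The -8.83 was that of BBN965, without which BBN tumours ran from -5.46 to -2.11. Psmb8 minus Psmb5 showed the same order, at 2.41 to 3.12 in MB49 tumours, 1.26 and 2.03 in BBN963 tumours, -1.36 to 1.21 in UPPL1541 tumours and -3.63 in the MB49 culture. Here the KT cultures, at -0.19 to 0.44, lay above the 3 other cultures, none of which exceeded -1.11. Psmb10 minus Psmb7 was 0.06 to 1.08 in MB49 tumours, the one group in which all values were above 0, and -3.46 in the MB49 culture. The constitutive Psmb5 was 1191 in the MB49 culture and 808.1 to 1143 in its tumours.

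**Figure D4:**
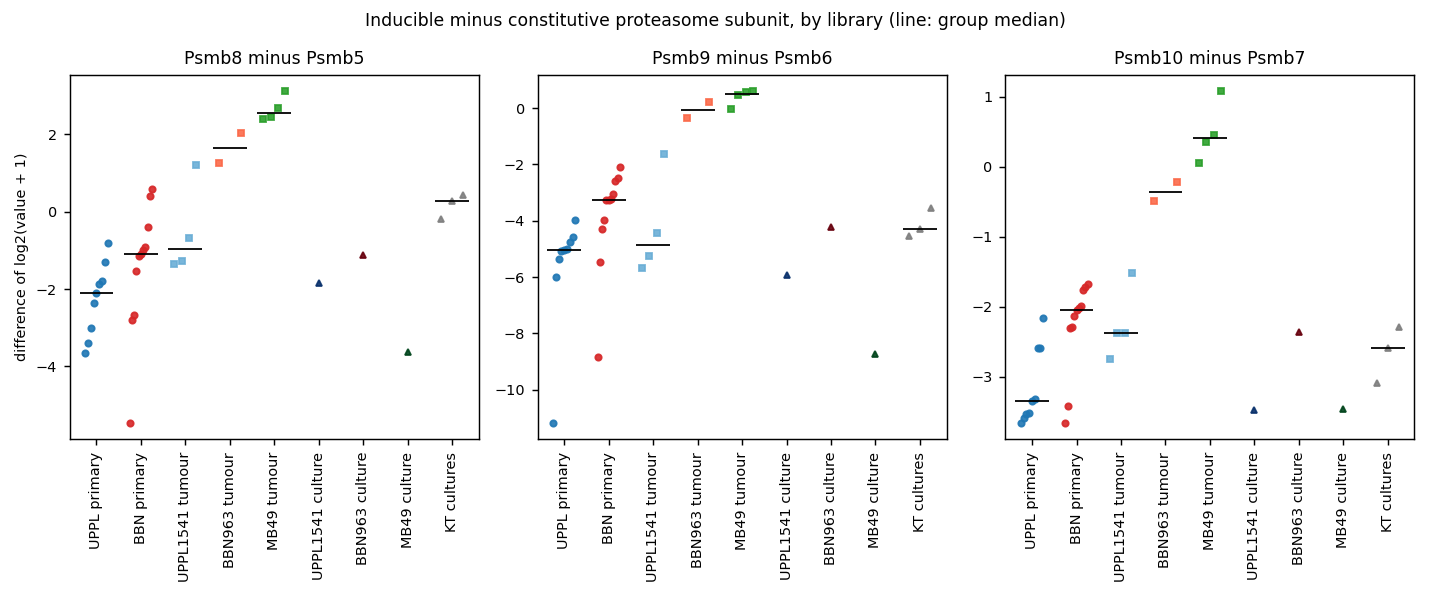
Log2 difference between each immunoproteasome subunit and the constitutive subunit it replaces (vertical axis; Psmb8 minus Psmb5, Psmb9 minus Psmb6, Psmb10 minus Psmb7), 1 point a library in 9 groups. MB49 and BBN963 tumours are highest in all 3 panels. The lowest Psmb9 minus Psmb6 is -11.16, in a UPPL primary tumour where Psmb9 is listed at 0, so that the pseudocount sets the value. The lowest Psmb8 minus Psmb5 is -5.45, in the BBN primary tumour BBN965.

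The balance of the 2 heavy chains was read in the same way, with no test. H2-K1 minus H2-D1 was 0.10 to 0.21 in MB49 tumours, 0.29 and 0.42 in BBN963 tumours, -0.05 to 0.53 in UPPL1541 tumours and at most -0.13, median -0.45, in UPPL primary tumours. BBN primary tumours ran from -1.89 in BBN965 to 0.36, and from -0.49 to 0.36 without BBN965. Cultures ran from -0.62 in a KT line to 0.65 in UPPL1541. All UPPL primary tumours thus lay below all MB49 and BBN963 tumours.

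Over the 36 libraries each member was correlated with the mean of the other 9, as a description over libraries that share lines and models. The correlation was 0.77 for Nlrc5 and Tapbp and 0.89 to 0.95 for the other 8. Of 13893 other genes, the 8 most like the mean of all 10 were Gm12250 (r = 0.94), Ube2l6 (0.92), Igtp, Irgm1, Ido1 and Gbp7 (0.90 each), and Irgm2 and AW112010 (0.89 each). Igtp, Irgm1 and Irgm2 encode interferon-inducible GTPases of the IRG family, Gbp7 a guanylate-binding protein, and Ido1 the tryptophan-degrading enzyme indoleamine dioxygenase. Psme1 stood at 0.89, Irf1 at 0.83, Ptprc at 0.57, Psmb5 at -0.10 and Psmb6 at -0.26. Within the 11 BBN primary tumours alone, Nlrc5 stood at 0.96, Tapbp at 0.03 and Ptprc at -0.00, and the 5 genes most alike of 14393 were H2-Gs10, Ctnnb1 and Ppp3ca (0.91 each), Tmem71 (0.90) and Optn (0.89). Without BBN965 these values moved: over the other 10 tumours Tapbp stood at 0.78, Psmb10 at 0.47 and Ptprc at -0.20, and the 5 most alike were Irf1 (0.93), Tm4sf1 (0.91), Tnip3 and Itgav (0.89 each) and Nmi (0.88). Irf1 encodes a transcription factor that interferon gamma induces and that acts on class I promoters.

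By group medians, MB49 tumours held the highest level in 8 members and BBN963 tumours in B2m and Nlrc5. The highest library was an MB49 tumour for all 10. The spread from the lowest to the highest of the 36 libraries was 94.37-fold for H2-K1, 23.03-fold for H2-D1, 147.3-fold for B2m, 77.66-fold for Tap1, 69.47-fold for Tap2, 9.711-fold for Tapbp, 201.3-fold for Psmb8 and 38.16-fold for Psmb10, and Nlrc5 and Psmb9 were listed at 0 in at least 1 UPPL primary tumour. Neighbours in the middle of the order, such as UPPL primary tumours, UPPL1541 tumours and the cultures, overlapped in H2-K1.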

How the data were processed

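The authors deposited 1 table of signal values for 36 mouse libraries and 21705 genes; per its values, every library has a 75th percentile over expressed genes of 998.9 to 1000. RNA was purified with an RNeasy kit and libraries made with TruSeq Stranded mRNA, per the labels' protocols. The submitters' processing notes name RSEM, SAMtools, Picard 1.64 and mm9, and give no roles. A further allele in the UPPL genotype label and a gene eligible for naming are not reported here.

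Dividing by the value of 1 read gave whole numbers (within 0.02) for 92.6 to 96.6% of values under 300 reads, and 9.29 to 17.9 M reads per library. For Tapbp they were whole within 0.1 read in 9 of 36 libraries, and for H2-K1 and H2-D1 in all 36. Groups follow the labels. Values were taken as log2(value + 1), on which differences of low genes are understated, and fitted with limma 3.58.1 (trend, two-sided) in R 4.3.3. A gene was kept where it reached 10 in as many libraries as the smallest group holds (never under 2), and p-values were adjusted over all of them by Benjamini-Hochberg, with a threshold of 0.05. All 10 members passed this filter in every comparison. Separate fits were made for primary tumours, for the 3 kinds of line-derived tumour, for the 4 UPPL and BBN groups, and for line-derived tumours with the 3 cultures of those lines. Members and lists were chosen with earlier results of these data known. All 10 members were named, then the first 2 genes of each other list with up to 2 more of the smallest adjusted p, and the 8 or 5 genes most correlated with the members' mean. Further genes beside BBN965 and UPPL1541 tumour 3 were chosen after their values were seen. The leukocyte level is the mean log2 value of 8 genes.

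Alternatives were another pseudocount, filters, scalings, array weights, no trend, 1 fit over all libraries, a replicate block, a leukocyte covariate, leaving out libraries, and edgeR 4.0.16 on recovered reads. Leaving out primary tumours in the fits other than the primary comparison, and BBN965 together with the covariate, were added after seeing the data. On simulated data for the primary comparison (12474 genes) limma recovered 53 of 100 2-fold and 85 of 100 4-fold changes, and for UPPL1541 against MB49 tumours (14253 genes) 32 and 85 of 100. Promoter windows are RefSeq's on GRCm38.p6; the spelling of the IRF core was shortened once after sequences were seen. Summaries and plots used pandas 2.3.3, numpy 2.4.6 and matplotlib 3.10.9 under Python 3.11.15.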

Additional observations from a re-analysis of the deposited data

Results flagged for a closer look

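Of 30 sets of 4 or 9 libraries (1 gene in 1 group), 5 held a library far from the others on the log2 scale. For a single set chance flags about 1 in 20. The sets share libraries and the members move together, so the count of 5 cannot be read against that rate. UPPL1541 tumour 3 was the highest of 4 in B2m (59339), Tap1 (2527) and Psmb10 (926.3). Among the 9 UPPL primary tumours, UPPL1695 was highest in H2-D1 (10898) and UPPL1595 lowest in Psmb9, where it was listed at 0; in UPPL1595 the most frequent low value was 17 reads. The 11 BBN primary tumours were too many for that test, so BBN965 was not tested by it.

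The tumour against culture difference was larger in MB49 than in UPPL1541 for Tap1 (log2 3.65), Tap2 (5.30), Tapbp (3.20), Psmb8 (3.66), Psmb9 (6.78) and Psmb10 (3.20). Each rests on 1 culture a line, assumed to vary like the tumours.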

How the results depend on the processing

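Of 2670 values (a member in a comparison under an alternative), 2470 kept direction and side of the threshold, 112 lost a call, 54 gained one and 34 turned sign; the causes were not tested. Members lower in UPPL primary tumours numbered 5 by edgeR, 6 in 1 fit over all libraries and 0 with the leukocyte covariate, with or without BBN965, and 3 to 8 with 1 primary tumour left out. Over all genes 893 were lower by edgeR, 2321 in 1 fit over all libraries and 239 with the covariate (172 without BBN965). With 1 primary tumour left out 1329 to 1764 were lower. Against BBN963 tumours, members lower in UPPL1541 numbered 4 with array weights, 5 in 1 fit over all libraries and 6 to 10 with 1 UPPL1541 tumour left out. Over all genes 658, 277 and 822 to 1132 were lower in these fits. Against MB49 tumours the members numbered 10 with any 1 UPPL1541 or MB49 tumour left out, where 2809 to 3224 genes were lower. Tapbp was the member lower in BBN963 than in MB49 tumours, and 0 were lower without the filter, with median-of-ratios scaling, array weights, no trend, edgeR or the replicate block. Over all genes 2826 to 3701 were lower under those settings. With 1 UPPL1541 or MB49 tumour left out 0 to 4 members were lower, where 3248 to 3918 genes were. In that comparison sign turned for B2m (0.04 by median-of-ratios, -0.26 to 0.07 with 1 tumour left out), Tap1 (0.11, 0.02 and 0.10 by median-of-ratios, array weights and edgeR, -0.26 to 0.11 with 1 left out), Psmb9 (0.08, 0.03 and 0.06, -0.23 to 0.02 with 1 left out) and Nlrc5 (-0.06 to 0.40 with 1 left out). Members higher in UPPL1541 than UPPL primary tumours numbered 1 under quantile normalization, 5 with array weights and 0 to 4 with 1 primary or UPPL1541 tumour left out. Over all genes 1777, 4838 and 2298 to 3267 were higher in these fits. In that comparison Tap2 was -0.18 under quantile normalization and -0.10 to 0.44, and H2-D1 -0.04 to 0.71, with 1 left out. Members higher in BBN963 than BBN primary tumours numbered 8 in 1 fit over all libraries, where 422 genes were higher. With 1 primary tumour left out they numbered up to 7, where 260 to 412 genes were higher. The Nlrc5 interaction of model and tumour kind was -0.20 with pseudocount 10, -0.47 under quantile normalization and -0.23 to 1.18 with 1 tumour left out. Members higher in tumours than cultures numbered 4 with array weights and 7 by edgeR, where 1629 and 2328 genes were higher. Members with a larger such difference in MB49 numbered 3 under quantile normalization, by edgeR and in 1 fit over all libraries. Over all genes 1033, 1209 and 428 had a larger one there. Members with a smaller one numbered 0 to 1 with 1 tumour left out. The Tapbp slope was -0.01 with pseudocount 10 and under quantile normalization, -0.05 by median-of-ratios and edgeR, and -0.03 to 0.05 with 1 tumour left out. Low reads limit Nlrc5 and Psmb9 in primary tumours and in cultures, where Nlrc5 was 1 read in UPPL1541 and Psmb9 3 reads in MB49. The culture shares of 0.12% and 0.285% and the Psmb9 difference of 6.78 between lines rest on these.

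Same-numbered line-derived tumours had correlated deviations of -0.093 to 0.066, so the numbers do not pair them. With the replicate block on the number, B2m, Tap1 and Psmb9 stood at 0.06, 0.11 and 0.11 for BBN963 minus MB49, and Tapbp lost its call against BBN963 (-0.91, adjusted p = 0.079).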
